A study of Drosophila melanogaster with 18 samples.

Results

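Tiggrin (Tig) and 9 further genes of the basement membrane were followed in single heads of Drosophila melanogaster. The set holds Tig, the collagen IV genes vkg and Col4a1, the collagen-binding glycoprotein gene SPARC, the laminin genes LanA, LanB1 and LanB2, the perlecan gene trol, the peroxidasin gene Pxn, and mys, which encodes an integrin receptor subunit. These 10 genes, of 17559 in the table, were chosen by function and with their RPKM differences between the groups of these same flies already known. Their values are therefore given as a description, without a p-value. All 10 were found, and all 10 passed the filter of a mean of at least 0.5 RPKM over the flies. RPKM scales the reads of a gene by its length in kilobases and by the size of the library in M reads (M, 1000000), so that levels can be set beside each other between genes as well as between flies.

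Poly-A RNA came from 18 heads, 1 fly per library, in 3 groups of 6, and the study describes the flies as female. The study describes all 3 groups as starved. Sucrose flies and sorbose flies were trained in appetitive olfactory conditioning with that sugar as the reward, and were collected 4 h later. Sorbose tastes sweet to flies but does not feed them. Odor flies are labelled naive and without sugar, and the study describes them as receiving the odor alone. The collection time of the odor flies, the strain and the age were not given in the sources used here, so that sugar, training and time of collection cannot be told apart in a difference from odor. Each library was 1 head, and nothing in the labels says whether heads of a group came from separate training sessions. In whole heads, fewer cells of a type and less RNA per cell cannot be told apart.

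The basement membrane is a thin sheet of matrix that lies under epithelia and around muscle, fat body, glia and the brain. Laminin trimers of an alpha, a beta and a gamma chain form a network on the cell surface, collagen IV forms another, and nidogen and perlecan join them. In the fly much of this matrix is secreted by haemocytes, the blood cells, and by the fat body, and reaches other tissues through the haemolymph. Integrins, each a pair of an alpha and a beta subunit, hold cells to it, and tiggrin is a fly matrix protein that binds the integrin made of the alpha subunit encoded by if and the beta subunit encoded by mys.

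The effective library sizes recovered from the RPKM steps were 45.8 to 60.5 M reads in sucrose flies, 46.8 to 65.6 M in sorbose flies and 58.4 to 77.2 M in odor flies. They are the sizes by which RPKM was scaled, and may differ from the reads that each library held. Of the values of all genes, 98.1% came out as whole reads within 0.05 of a read, and each of the 10 genes had at least 1274 reads in every fly, so that counting error was small beside the spread between flies. The reads of trol are approximate, because its values did not come out as whole reads with its annotated length. Odor replicates 1, 6 and 3 stood apart from the other libraries. A principal component analysis of all tested genes placed 37.6% of their variance on its first axis. Sucrose flies lay between -27.4 and -0.45 on it and sorbose flies between -11.1 and -4.81. Odor replicates 1, 6 and 3 lay at 54.2, 50.5 and 29.9, and the other odor flies between -5.17 and 17.0. The differences of the 10 genes from odor (all in the plot of fitted differences) and the calls among the lists are therefore also given without odor flies 1 and 6, a choice made after the data were seen. No marker of neurons, glia, muscle, fat body or haemocytes was at 0 in any fly, and none of the 4 neuron markers (elav, brp, Syt1, nSyb) was called in any comparison.

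Differences are given on the scale of log2(RPKM + 0.5), and a gene is counted as called where the adjusted p of limma, over all 11062 genes tested, was under 0.05. Between sucrose and odor, 6 of the 10 genes were called higher and 0 lower, where 13.1% of all genes were higher, 14.4% lower and 27.5% called in either direction. Between sorbose and odor, 4 were called higher and 0 lower, beside 12.2% higher, 12.2% lower and 24.4% in either direction among all genes. The median log2 difference of the 10 genes was 0.55 in sucrose and 0.31 in sorbose, with a median over all genes of -0.0012 and 0.0067. Without odor flies 1 and 6, Tig alone was called in each comparison, where 14.7% of all genes were called in sucrose and 8.29% in sorbose. When single flies were left out the sorbose count was between 1 and 6, and the calls among all genes were between 1771 and 3179. Since these contrasts were known when the genes were listed, nothing is read from these counts. Both comparisons share the same 6 odor flies.

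**Figure D1:**
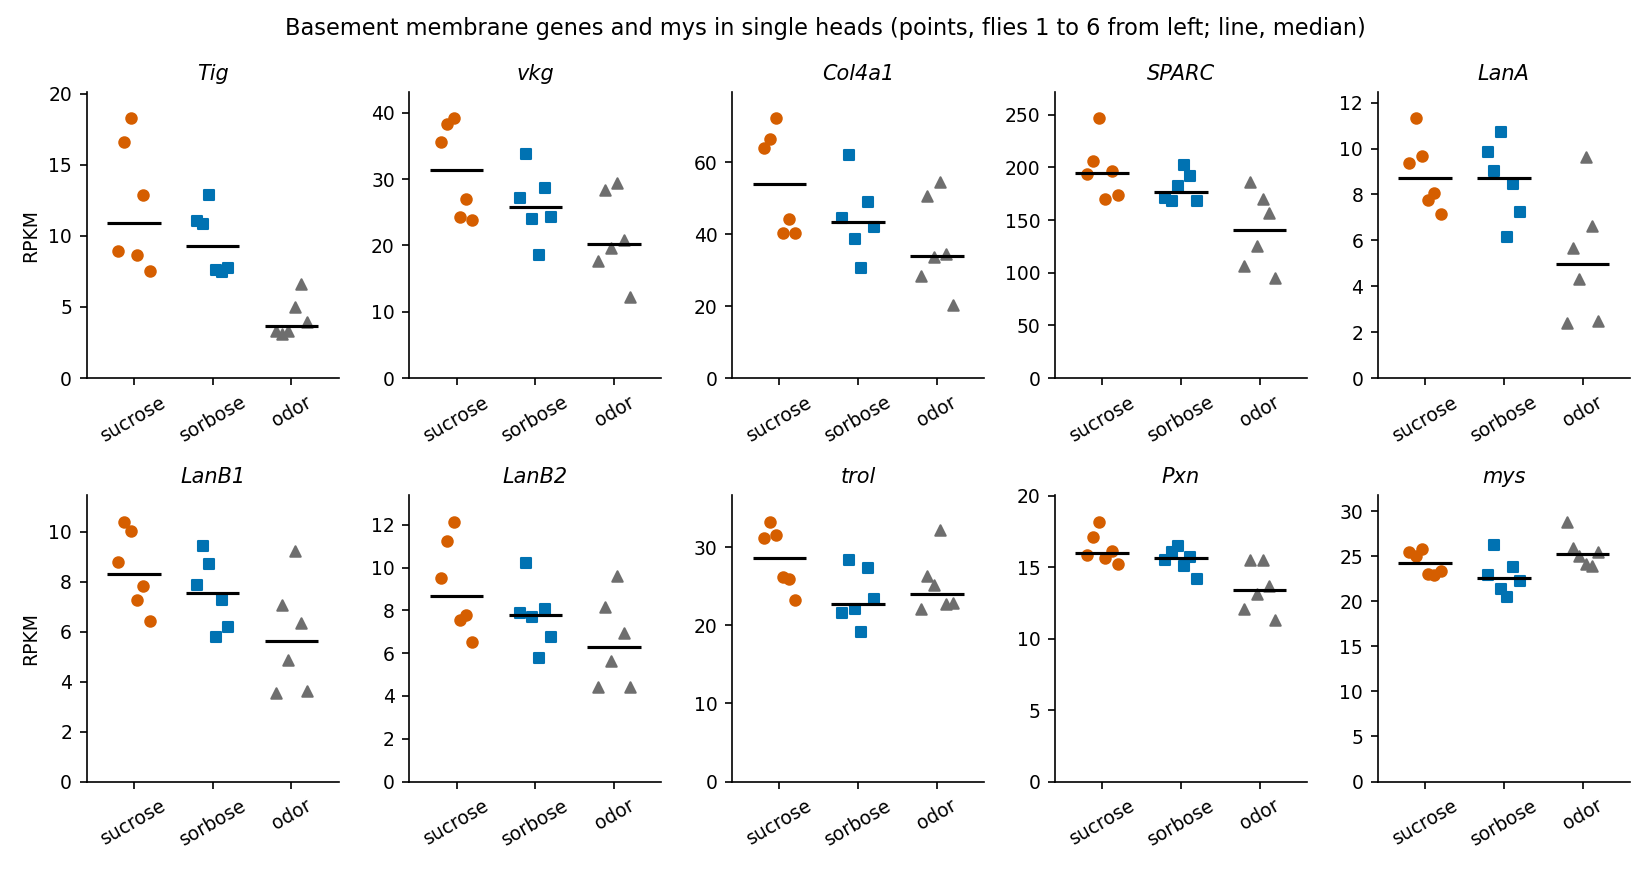
RPKM of the 10 genes in each head (vertical axes from 0, in RPKM), with sucrose flies as circles, sorbose flies as squares and odor flies as triangles, replicates 1 to 6 from left to right in each group, and a line at the group median. Every trained fly lies above every odor fly in the Tig panel, with 7.48 RPKM as the lowest trained value and 6.61 RPKM as the highest odor value, and in the other 9 panels the trained flies overlap with the odor flies.

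Tig showed the largest difference of the 10 genes. In dm6 coordinates, Tig (FBgn0011722) lies on chromosome 2L from 6415179 to 6423310 on the minus strand. Its level was 8.97, 16.6, 18.3, 8.65, 12.9 and 7.54 RPKM in sucrose flies 1 to 6. It was 11.04, 10.8, 12.9, 7.58, 7.48 and 7.73 RPKM in sorbose flies, and 3.34, 3.10, 3.30, 5.00, 6.61 and 3.97 RPKM in odor flies. All 12 trained flies thus lay above all 6 odor flies, and the gap between the highest odor fly and the lowest trained fly was small beside the spread within each group. Sucrose flies 2, 3 and 5 were high in their group, sorbose flies 1 to 3 lay above sorbose flies 4 to 6, and odor flies 4 and 5 were the highest of theirs.

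The mean level of Tig was 12.2 ± 4.51 RPKM in sucrose flies, 9.59 ± 2.30 RPKM in sorbose flies and 4.22 ± 1.36 RPKM in odor flies (SD, n = 6 each). The log2 difference from odor was 1.39 ± 0.23 in sucrose and 1.11 ± 0.23 in sorbose (SE), a ratio of 2.62 and 2.16 on that scale. Without odor flies 1 and 6 it was 1.32 ± 0.26 in sucrose and 1.04 ± 0.26 in sorbose, and Tig was called in both comparisons. Tig was the single gene of the 10 whose groups did not overlap, in sucrose against odor as in sorbose against odor, where 9.45% and 7.17% of all genes tested had groups that did not overlap. Sucrose and sorbose flies overlapped in Tig (log2 difference 0.28 ± 0.23), with 2 sucrose flies above the highest sorbose fly. A predicted gene on the opposite strand, CG13982, shares 157 bases (2.24%) of the exonic length of Tig, and the libraries did not mark the strand.

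**Figure D2:**
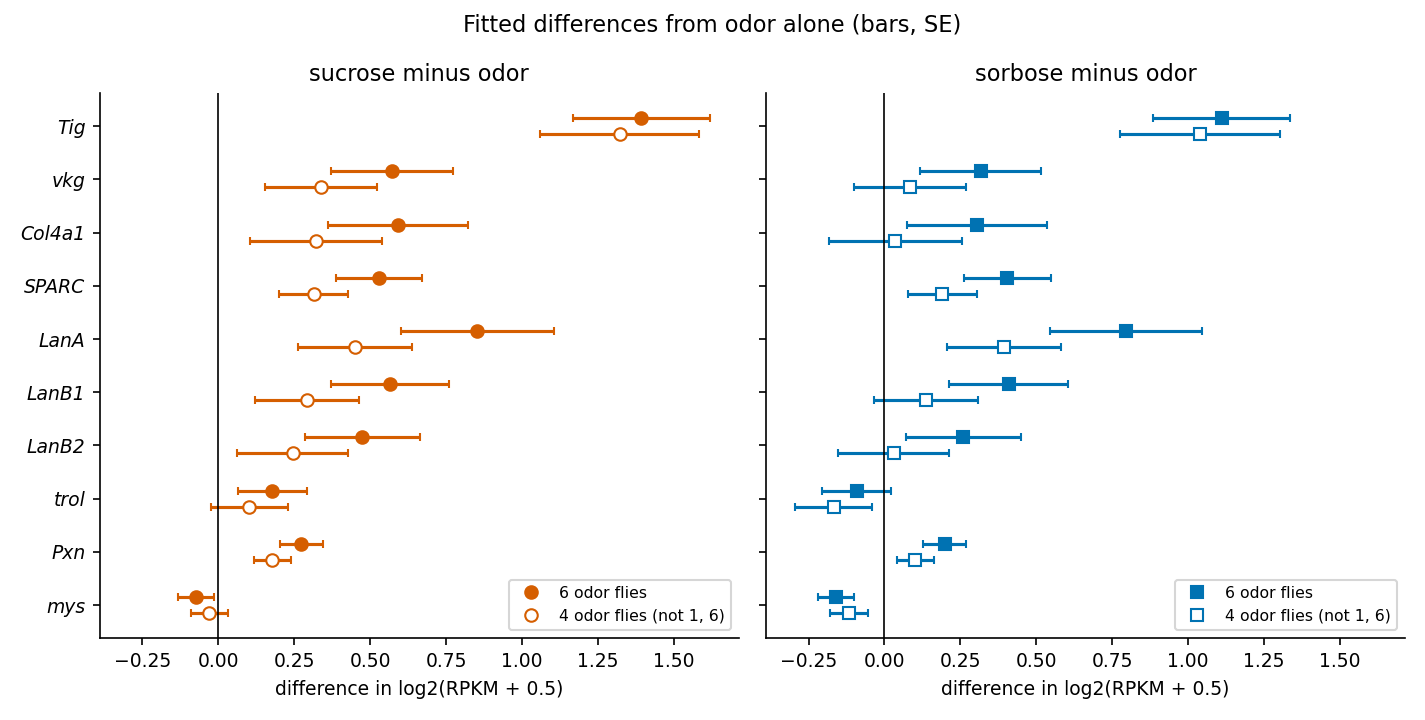
Fitted differences in log2(RPKM + 0.5) of the 10 genes for sucrose minus odor (left) and sorbose minus odor (right), with SE bars, over all 6 odor flies (filled) and over the 4 odor flies other than 1 and 6 (open). Tig keeps a difference above 1 in all 4 estimates, and those of the collagen and laminin genes are smaller without odor flies 1 and 6.

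The receptor subunit gene mys (FBgn0004657; dm6 chromosome X, 8061645 to 8070237, plus strand) encodes the beta chain that most fly integrins share, and was called in neither comparison. Its lowest, median and highest levels were 22.9, 24.2 and 25.8 RPKM in sucrose flies, 20.5, 22.6 and 26.2 RPKM in sorbose flies, and 23.9, 25.2 and 28.8 RPKM in odor flies. The groups overlapped, although 5 of 6 sorbose flies lay below the lowest odor fly. The log2 difference from odor was -0.07 ± 0.06 in sucrose and -0.16 ± 0.06 in sorbose, with opposite signs to those of Tig. The alpha subunit gene if, whose product pairs with that of mys in the tiggrin receptor, had a mean of 15.3 ± 2.37 RPKM in sucrose flies, 14.0 ± 0.56 RPKM in sorbose flies and 11.9 ± 3.46 RPKM in odor flies (SD, n = 6 each). All 6 flies of each trained group were above the odor mean in if, but it was not called (sucrose against odor 0.39 ± 0.15, limma adjusted p = 0.0589, sorbose against odor 0.27 ± 0.15, limma adjusted p = 0.192). With the 4 other odor flies its difference was 0.18 ± 0.13 in sucrose and 0.06 ± 0.13 in sorbose.

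Collagen IV of the fly is built from the chains of Col4a1 and vkg, whose genes are neighbours that are read away from each other. vkg (FBgn0016075) lies on dm6 chromosome 2L from 5012144 to 5028191 on the minus strand, and Col4a1 (FBgn0000299) begins 1417 bases further on, from 5029609 to 5037279 on the plus strand. For vkg the lowest, median and highest levels were 23.8, 31.3 and 39.2 RPKM in sucrose flies, 18.5, 25.7 and 33.8 RPKM in sorbose flies, and 12.2, 20.2 and 29.5 RPKM in odor flies. For Col4a1 they were 40.3, 54.1 and 72.3 RPKM in sucrose flies, 30.6, 43.3 and 61.9 RPKM in sorbose flies, and 20.3, 34.1 and 54.6 RPKM in odor flies. In both genes sucrose flies 1 to 3 lay above all odor flies, sucrose flies 4 to 6 lay among them, and odor flies 2 and 4 were the highest of their group.

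The log2 difference of vkg was 0.57 ± 0.20 in sucrose against odor, which was called, and 0.32 ± 0.20 in sorbose against odor, which was not. That of Col4a1 was 0.59 ± 0.23 in sucrose and 0.31 ± 0.23 in sorbose, and was called in neither. With the 4 other odor flies alone the differences were 0.34 ± 0.18 and 0.08 ± 0.18 for vkg, and 0.32 ± 0.22 and 0.04 ± 0.22 for Col4a1, in sucrose and sorbose in that order, and none was called. The 2 chains kept nearly 1 ratio in every head. Col4a1 over vkg was 1.73 ± 0.08 in sucrose flies, 1.70 ± 0.08 in sorbose flies and 1.71 ± 0.09 in odor flies (SD, n = 6 each), and its range over the 18 flies was 1.61 to 1.85, while Col4a1 itself spanned 20.3 to 72.3 RPKM.

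SPARC encodes a secreted glycoprotein that binds collagen IV and is needed for its deposition. SPARC (FBgn0026562; dm6 chromosome 3R, 26869238 to 26871995, minus strand) had the highest RPKM of the 10 genes in all 18 flies. Its lowest, median and highest levels were 169.7, 195 and 247 RPKM in sucrose flies, 168, 177 and 202 RPKM in sorbose flies, and 95.4, 141 and 186 RPKM in odor flies. Odor flies 2 and 4 reached the range of the trained flies, and the lowest levels were those of odor flies 6 and 1. The log2 difference was 0.53 ± 0.14 in sucrose and 0.40 ± 0.14 in sorbose, both called, and 0.31 ± 0.11 and 0.19 ± 0.11 without odor flies 1 and 6, neither called.

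Pxn encodes peroxidasin, an enzyme of the matrix that cross-links collagen IV. Pxn (FBgn0011828; dm6 chromosome 3L, 2601455 to 2630064, minus strand) varied little between flies, with 15.2, 16.0 and 18.2 RPKM as the lowest, median and highest in sucrose flies, 14.2, 15.7 and 16.5 RPKM in sorbose flies, and 11.3, 13.4 and 15.5 RPKM in odor flies. Of the sucrose flies 5, and of the sorbose flies 4, lay above the highest odor fly. The log2 difference was small, 0.27 ± 0.07 in sucrose and 0.20 ± 0.07 in sorbose, and was called in both. With odor flies 1 and 6 left out it was 0.18 ± 0.06 and 0.10 ± 0.06 and was called in neither.

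The laminin genes encode the alpha chain (LanA), the beta chain (LanB1) and the gamma chain (LanB2) of the laminin trimer. LanA (FBgn0002526) lies on dm6 chromosome 3L from 6203831 to 6218022 on the minus strand, LanB1 (FBgn0261800) on 2L from 7811438 to 7820771 on the plus strand, and LanB2 (FBgn0267348) on 3L from 9614914 to 9623980 on the plus strand. LanA had 7.15, 8.71 and 11.3 RPKM as the lowest, median and highest in sucrose flies, 6.14, 8.73 and 10.7 RPKM in sorbose flies, and 2.39, 4.98 and 9.63 RPKM in odor flies. Its spread was widest in odor flies, where the highest was 4.03 times the lowest, beside 1.58 times in sucrose flies and 1.74 times in sorbose flies. Odor fly 4 lay among the trained flies, and odor flies 1 and 6 were the lowest of all 18 heads.

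LanB1 and LanB2, present in every fly laminin, also had their lowest medians in odor flies. LanB1 had a median of 8.29 RPKM in sucrose flies (6.42 to 10.4), 7.56 RPKM in sorbose flies (5.76 to 9.41) and 5.61 RPKM in odor flies (3.54 to 9.20). LanB2 had a median of 8.66 RPKM in sucrose flies (6.54 to 12.2), 7.81 RPKM in sorbose flies (5.77 to 10.2) and 6.29 RPKM in odor flies (4.43 to 9.63). Trained flies overlapped with odor flies in both genes, with 2 sucrose flies and 1 sorbose fly above the highest odor fly.

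The log2 difference of LanA was 0.85 ± 0.25 in sucrose and 0.80 ± 0.25 in sorbose, both called. Those of LanB1 were 0.56 ± 0.20 in sucrose, which was called, and 0.41 ± 0.20 in sorbose, which was not. Those of LanB2, 0.47 ± 0.19 and 0.26 ± 0.19, were not called. The beta and gamma chains stayed near a ratio of 1, with LanB1 over LanB2 between 0.80 and 1.13 over the 18 flies. LanA over LanB1 was 1.06 ± 0.05 in sucrose flies, 1.14 ± 0.11 in sorbose flies and 0.86 ± 0.17 in odor flies (SD, n = 6 each). Without odor flies 1 and 6 the differences of LanA fell to 0.45 ± 0.19 in sucrose and 0.39 ± 0.19 in sorbose, and none of the 3 laminin genes was called.

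The fly has another laminin alpha chain gene, wb (wing blister), which encodes a ligand of the integrins and was not among the 10 genes. wb moved against LanA. Its lowest, median and highest levels were 1.15, 2.35 and 3.35 RPKM in sucrose flies, 1.28, 2.14 and 2.77 RPKM in sorbose flies, and 3.93, 6.59 and 8.85 RPKM in odor flies. Every trained fly lay below every odor fly, and odor flies 6 and 1, the lowest in LanA, were the highest in wb. wb fell by 1.22 ± 0.23 on the log2 scale in sucrose (limma adjusted p = 0.00134) and by 1.37 ± 0.23 in sorbose (limma adjusted p = 0.0019), and it was also called in both without odor flies 1 and 6 (-1.003 ± 0.24 and -1.15 ± 0.24).

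The sum of LanA and wb, a quantity chosen after their values were seen, was 11.3 ± 1.69 RPKM in sucrose flies, 10.7 ± 1.68 RPKM in sorbose flies and 11.6 ± 1.54 RPKM in odor flies (SD, n = 6 each). LanA made up 78.5% ± 6.99 of that sum in sucrose flies, 79.9% ± 5.76 in sorbose flies and 43.8% ± 19.8 in odor flies. In odor flies the share had a range of 22.0% to 71.0%, and the lowest sucrose fly, at 68.1%, lay within it.

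**Figure D3:**
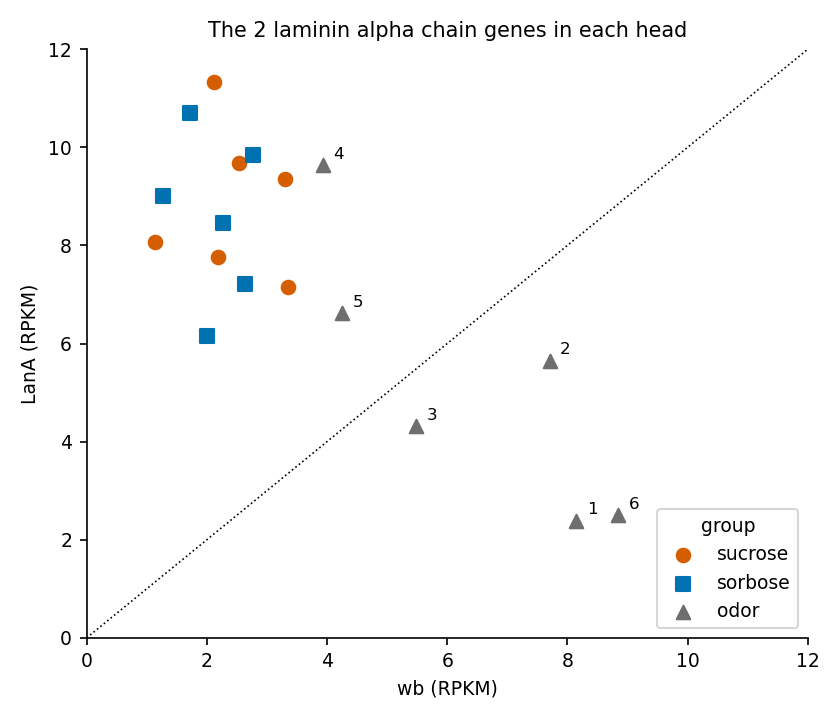
LanA (vertical axis, RPKM) against wb (horizontal axis, RPKM) in each head, with sucrose flies as circles, sorbose flies as squares, odor flies as triangles with their replicate numbers, and a dotted line where both are equal. All trained flies have at most 3.35 RPKM of wb and lie above the line, and odor flies 1, 2, 3 and 6 lie below it.

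The perlecan gene trol encodes a large heparan sulfate proteoglycan. trol (FBgn0261451 in the table; dm6 chromosome X, 2470460 to 2545427, minus strand) had 23.3, 28.7 and 33.3 RPKM as the lowest, median and highest in sucrose flies, 19.1, 22.8 and 28.5 RPKM in sorbose flies, and 22.1, 24.0 and 32.2 RPKM in odor flies. The groups overlapped, and sorbose flies were on average below odor flies. The log2 difference was 0.18 ± 0.11 in sucrose and -0.09 ± 0.11 in sorbose, neither called.

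The comparison of the sugars asks whether a sugar that feeds the fly gives another response than one that is only sweet. None of the 10 genes was called between sucrose and sorbose by limma. By voom on the recovered reads none of those fitted was called, but trol was left out of that fit, because its older identifier is not in the annotation. Among all genes 0.00904% were called (1 of 11062, but 49 without sorbose replicate 2, 19 with quantile normalization and 308 with sample quality weights), and 1.18% had groups that did not overlap, which none of the 10 did. At an unadjusted p under 0.05 the count was 1 of the 10, trol (log2 difference 0.27 ± 0.11), given as a description. The fitted difference was positive in all 10 genes, with a median of 0.18 beside -0.0063 over all genes. The 95% interval of the difference reached from -0.20 to 0.76 for Tig, from -0.20 to 0.77 for Col4a1 and from -0.47 to 0.59 for LanA, so that a difference between the sugars of the size seen against odor was within the interval for Col4a1 but not for Tig or LanA.

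Among themselves the genes differed in how they varied from head to head. With each group's mean removed, the 45 pairs of the 10 genes had a median Pearson r of 0.73 over the 18 flies, with a range of -0.19 to 0.99. The r was over 0.8 in 17 pairs and negative in 2. These correlations are descriptions, and the values of a pair share a library and its depth. vkg and Col4a1 had an r of 0.99 (Spearman rho 1.00), LanB1 and LanB2 an r of 0.96 (rho 0.95), and LanA and LanB1 an r of 0.95 (rho 0.92). Without the 2 flies farthest from the median these were 0.99, 0.95 and 0.91. LanB2 was as close to the collagens, with an r of 0.94 for vkg and for Col4a1. Over the 18 flies together Tig and mys stood apart, with a median r to the other 9 genes of 0.38 for Tig and 0.04 for mys. For both genes that value joined unlike groups of 6 flies each. Within sucrose, sorbose and odor flies the r of Tig was 0.74, 0.34 and 0.09 with vkg. With Pxn it was 0.95, 0.71 and 0.15, and with LanA 0.75, 0.86 and 0.53. Tig therefore did not stand apart from these genes within sucrose flies. In the same order the r of mys was 0.94, 0.96 and -0.29 with vkg. It was 0.97, 0.98 and -0.33 with Col4a1, and 0.87, 0.91 and -0.60 with LanB2. The r of SPARC over the 18 flies joined unlike groups as well. In the same order it was 0.83, -0.63 and 0.94 with vkg, 0.87, -0.56 and 0.95 with LanB2, and 0.95, 0.11 and 0.97 with Pxn.

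**Figure D4:**
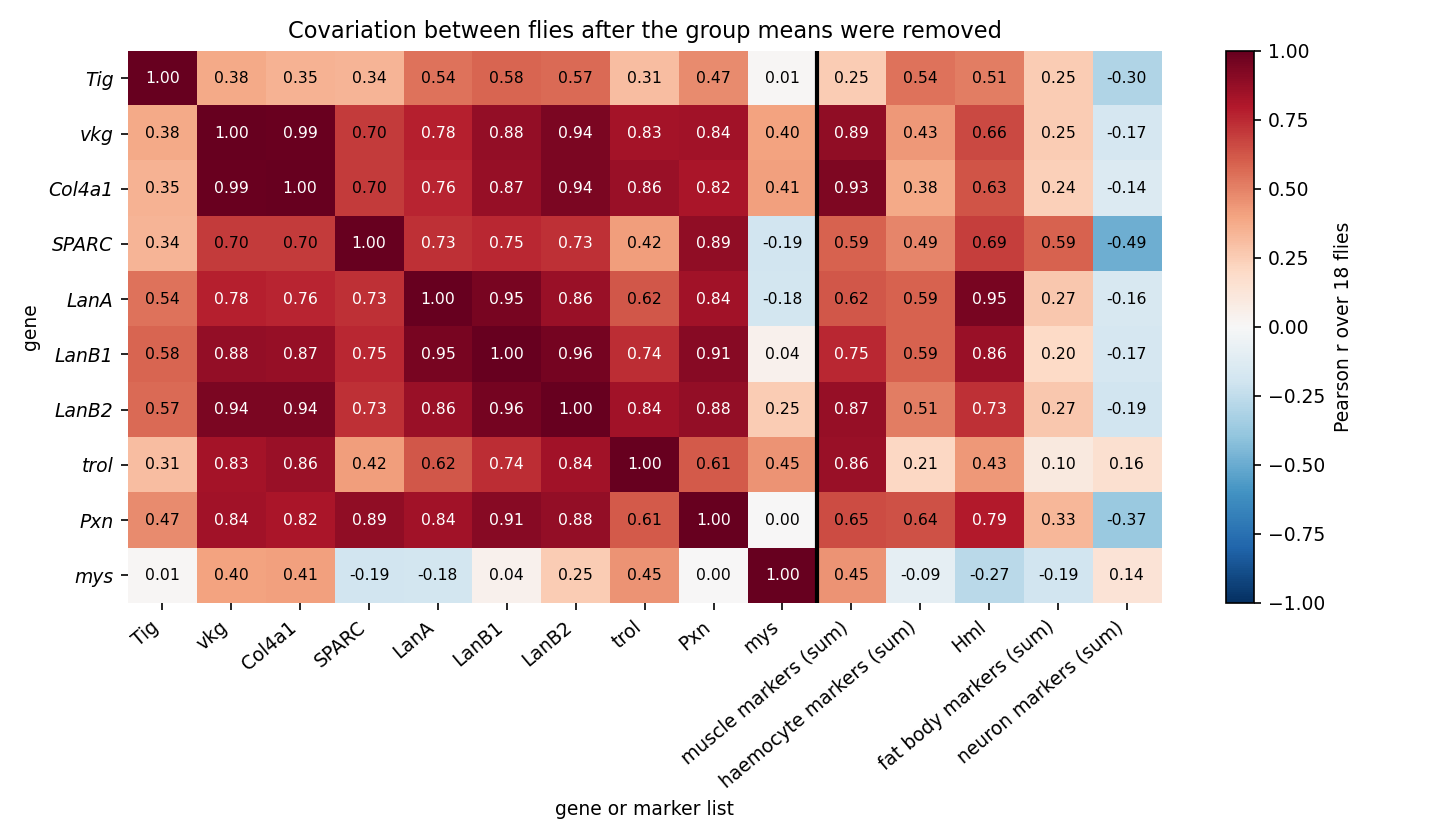
Pearson r of log2 values after the group means were removed, over 18 flies, between the 10 genes (rows, and the 10 columns left of the thick line) and with Hml and the summed markers of 4 cell types (columns right of it). The collagens, LanB2 and trol have an r of 0.86 to 0.93 with the muscle markers, LanA has 0.95 with Hml, and the rows of Tig and mys are pale.

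Markers of the cell types in the head moved with these genes in different ways. The marker lists were also chosen with earlier results of these data known, so the p-values of single markers are descriptions. The muscle markers (Mhc, Mlc2, up, Tm2, Act88F) summed to 2201, 2130, 2394, 1049, 1289 and 1186 RPKM in sucrose flies 1 to 6, and their range was 703.6 to 2416 RPKM in sorbose flies and 798.6 to 2199 RPKM in odor flies. The r with this sum, group means removed, was 0.93 for Col4a1 (rho 0.91, 0.91 without the 2 farthest flies, and 0.99, 0.90 and 0.95 within sucrose, sorbose and odor flies), 0.89 for vkg, 0.87 for LanB2 and 0.86 for trol. It was 0.25 for Tig. Sucrose flies 1 to 3 were thus high both in the collagen IV genes and in muscle genes. Of the 5 muscle markers only Act88F, a flight muscle actin, was called against odor (0.63 ± 0.22 in sucrose and 0.76 ± 0.22 in sorbose, limma adjusted p = 0.041 and 0.0202). Among all genes 27.5% were called in sucrose and 24.4% in sorbose. Most of the sum came from Mlc2, up and Mhc, with means of 705, 322 and 303 RPKM over the flies, beside 3.29 RPKM for Act88F. The part of muscle in the differences was not tested.

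Haemocytes secrete much of the basement membrane. The 7 haemocyte markers (Hml, NimC1, eater, He, Sr-CI, crq, srp) summed to 98.3 to 128.2 RPKM in sucrose flies, 100.5 to 146 RPKM in sorbose flies and 102.6 to 127 RPKM in odor flies. The log2 sums of the groups differed by -0.002 between sucrose and odor, by -0.007 between sorbose and odor and by 0.005 between sucrose and sorbose (two-sided exact permutation p = 0.991, 0.905 and 0.972, adjusted p = 0.991 for each, where 0.00216 is the smallest that 6 against 6 flies can give). Without odor flies 1 and 6 the log2 sums differed by -0.05 in sucrose and by -0.06 in sorbose, neither past the threshold. The largest part of the sum was crq, with a mean of 58.7 RPKM over the flies beside 17.6 RPKM for Hml. crq was called in neither comparison with odor, so the sum says little about the markers at lower levels.

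Single haemocyte markers moved in both directions. Hml, which encodes hemolectin, a secreted clotting protein, was at 20.06 ± 4.28 RPKM in sucrose flies, 22.5 ± 7.41 RPKM in sorbose flies and 10.1 ± 5.39 RPKM in odor flies (SD, n = 6 each). Hml rose by 1.11 ± 0.30 in sucrose and 1.24 ± 0.30 in sorbose on the log2 scale (limma adjusted p = 0.012 and 0.00842). NimC1, a phagocytosis receptor, fell in both (-0.40 ± 0.10 and -0.37 ± 0.10, limma adjusted p = 0.00643 and 0.0127), and the scavenger receptor gene Sr-CI fell in sucrose (-0.61 ± 0.19, limma adjusted p = 0.0223). LanA and Hml had an r of 0.95 with group means removed (rho 0.95, 0.92 without the 2 farthest flies, and 0.78, 0.89 and 0.98 within sucrose, sorbose and odor flies), while for Col4a1 and Hml it was 0.63, with 0.12 within sorbose flies.

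The summed fat body markers (apolpp, Apoltp, Lsp2, Yp1, Yp2, Yp3) had their higher medians in trained flies. The sum had a median of 7311 RPKM in sucrose flies (5973 to 23420), 6033 RPKM in sorbose flies (2079 to 10510) and 3746 RPKM in odor flies (2995 to 8252), most of it from the yolk protein genes. In sucrose 4 of the 6 were called, all higher, where 27.5% of all genes were called and 13.1% were higher. In sorbose 1 of the 6 was called, also higher, where 24.4% of all genes were called and 12.2% were higher. The lipoprotein gene apolpp rose by 3.35 ± 0.57 in sucrose and 2.48 ± 0.57 in sorbose (limma adjusted p = 0.000763 and 0.00692), and Apoltp, Yp1 and Yp2 rose in sucrose (0.94 ± 0.19, 1.32 ± 0.40 and 1.54 ± 0.41, limma adjusted p = 0.00239, 0.0221 and 0.0107). Lsp2 (1.82 ± 1.4 and -0.53 ± 1.4) and Yp3 (0.25 ± 0.47 and -0.09 ± 0.47) were called in neither. Part of the exonic length of Yp1, and 84.62% of that of Lsp2, is shared with an antisense gene. The r of the fat body sum with the 10 genes was at most 0.59, for SPARC, but that sum is mostly yolk protein. The r with apolpp alone, group means removed, was 0.77 for LanA, 0.76 for Pxn, 0.74 for SPARC, 0.73 for LanB1 and 0.63 for Tig. It was 0.61 for LanB2, 0.43 for vkg, 0.41 for Col4a1, 0.26 for trol and -0.43 for mys. Within sucrose, sorbose and odor flies it was 0.33, 0.24 and 0.95 for LanA and 0.46, 0.26 and 0.91 for LanB1. For Pxn it was 0.74, 0.71 and 0.77 in the same order. Among glia markers, the transporter gene Mdr65 and the transcription factor gene repo rose in sucrose (0.51 ± 0.15 and 0.16 ± 0.06, limma adjusted p = 0.0168 and 0.0485), and moody, a receptor gene of the blood-brain barrier, fell in sucrose and sorbose (-0.22 ± 0.08 and -0.26 ± 0.08, limma adjusted p = 0.0472 and 0.0275). When odor flies 1 and 6 were left out, the markers still called were NimC1, apolpp and Apoltp in sucrose (-0.33 ± 0.11, 2.64 ± 0.54 and 1.09 ± 0.20) and Hml in sorbose (0.77 ± 0.23). The part of fat body, glia or haemocytes in the differences was not tested.

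Genes with related work in the matrix were taken from a list by function, of 44 genes in 6 roles other than the 10 above. Of these, 40 were found and 38 passed the filter. The list was chosen with earlier results of these data known, so its counts and adjusted p-values are given as descriptions. Between sucrose and odor 17 of the 38 were called, 9 higher and 8 lower, with a median log2 difference of 0.07, so that 44.7% were called beside 27.5% of all genes. Between sorbose and odor 12 were called, 3 higher and 9 lower, with a median of 0.02, or 31.6% beside 24.4% of all genes. The wider list therefore had calls in both directions. By voom on the recovered reads the split was 12 higher and 3 lower in sucrose and 8 higher and 4 lower in sorbose, and with quantile normalization 8 higher and 7 lower in sucrose and 4 higher and 7 lower in sorbose. Without odor flies 1 and 6, 7 were called in sucrose (Ppn, Tsp, Mmp1 and dlp higher, wb, Sdc and stck lower) and 4 in sorbose (Tsp higher, wb, Timp and Sdc lower), where 14.7% and 8.29% of all genes were called in sucrose and sorbose without those flies. The other calls named below were lost, some with a smaller difference (Fit1 in sucrose -0.43 with all flies and -0.18 without those 2, Glt in sucrose 1.23 and 0.64) and some with nearly the same one (Loxl1 in sucrose 0.23 and 0.21, Mmp2 in sorbose -0.19 and -0.17).

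Other secreted basement membrane proteins were those with the largest differences. Of 8 tested, 4 rose and 2 fell in sucrose, where 13.1% of all genes were higher and 14.4% lower, and 2 rose and 2 fell in sorbose, where 12.2% were higher and 12.2% lower. Ppn, which encodes the large matrix glycoprotein papilin, had 25.6, 27.7 and 34.1 RPKM as the lowest, median and highest in sucrose flies, 21.6, 27.2 and 39.9 RPKM in sorbose flies, and 6.68, 17.04 and 22.3 RPKM in odor flies. No sucrose fly and 1 sorbose fly lay within the range of the odor flies. Ppn rose by 0.98 ± 0.24 in sucrose and 0.93 ± 0.24 in sorbose (limma adjusted p = 0.00742 and 0.0121), and without odor flies 1 and 6 it was called in sucrose alone (0.57 ± 0.16). Like LanA it varied with Hml (r = 0.94, rho 0.86, group means removed).

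Glt, which encodes glutactin, an acidic glycoprotein of the basement membrane, had 113, 176 and 257 RPKM as the lowest, median and highest in sucrose flies, 124, 137 and 166 RPKM in sorbose flies, and 29.4, 83.5 and 176 RPKM in odor flies. It rose in sucrose (1.23 ± 0.38, limma adjusted p = 0.0235) and was not called in sorbose (0.92 ± 0.38, limma adjusted p = 0.0846), and odor flies 1, 6 and 3 held the low end of its range. Ndg encodes nidogen, which bridges laminin and collagen IV. Its mean was 11.6 ± 3.60 RPKM in sucrose flies, 6.89 ± 1.23 RPKM in sorbose flies and 5.76 ± 2.10 RPKM in odor flies (SD, n = 6 each).

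Ndg rose in sucrose (0.96 ± 0.23, limma adjusted p = 0.0068) and was not called in sorbose (0.29 ± 0.23, limma adjusted p = 0.387). The difference between the sugars was not past the threshold either (0.66 ± 0.23, limma adjusted p = 0.282), although 5 of 6 sucrose flies lay above the highest sorbose fly. Tsp, the thrombospondin gene, whose product binds integrins where muscles attach, had a mean of 30.4 ± 2.14 RPKM in sucrose flies, 28.4 ± 2.55 RPKM in sorbose flies and 21.4 ± 3.71 RPKM in odor flies (SD, n = 6 each). Tsp rose in both (0.51 ± 0.10 and 0.41 ± 0.10, limma adjusted p = 0.0016 and 0.00768) and was also called in both without odor flies 1 and 6. Besides wb, the multiplexin gene Mp fell, by 0.25 ± 0.07 in sucrose and 0.23 ± 0.07 in sorbose (limma adjusted p = 0.0158 and 0.0275).

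**Figure D5:**
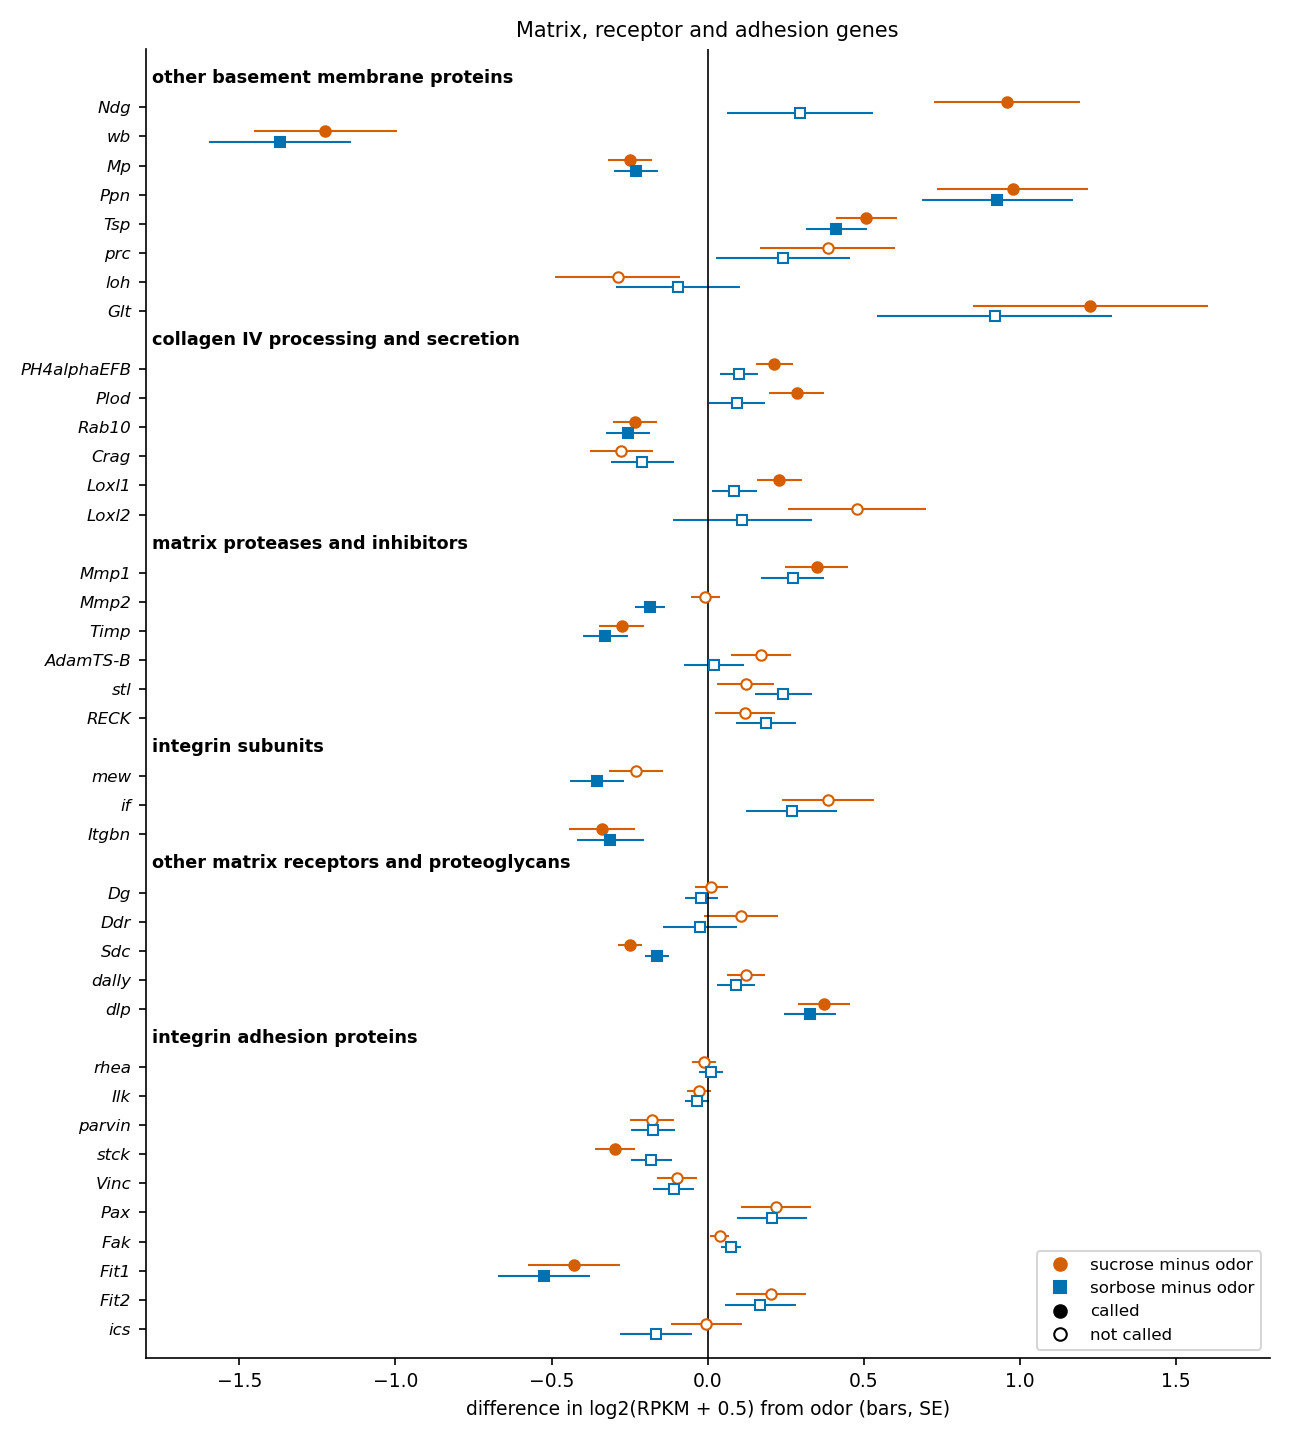
Differences in log2(RPKM + 0.5) from odor, with SE bars, of the 38 tested genes of the wider list by role, with sucrose as circles above sorbose as squares for each gene, filled where called. wb lies farthest to the left and Glt, Ppn and Ndg farthest to the right, and the integrin subunits and adhesion proteins that limma called lie left of 0.

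The genes for collagen processing and secretion moved less. In sucrose 3 of 6 rose, where 13.1% of all genes were higher. They were PH4alphaEFB and Plod, which encode hydroxylases of collagen proline and lysine, and the lysyl oxidase gene Loxl1, by 0.21 ± 0.06, 0.28 ± 0.09 and 0.23 ± 0.07 (limma adjusted p = 0.0146, 0.0243 and 0.0251). Loxl1 was close to the filter of 0.5 RPKM, with a mean of 0.62 RPKM in sucrose flies, 0.52 in sorbose flies and 0.46 in odor flies. None of the 3 genes that rose in sucrose was called in sorbose. Rab10, a small GTPase gene that serves the secretion of collagen to the basal side of epithelia, fell in both (-0.23 ± 0.07 and -0.26 ± 0.07, limma adjusted p = 0.0222 and 0.016). Among proteases and inhibitors, the matrix metalloproteinase gene Mmp1 rose in sucrose (0.35 ± 0.10, limma adjusted p = 0.017), Mmp2 fell in sorbose (-0.19 ± 0.05, limma adjusted p = 0.0106), and Timp, the inhibitor of these proteases, fell in both (-0.28 ± 0.07 and -0.33 ± 0.07, limma adjusted p = 0.00979 and 0.00539). Timp shares 15.65% of its exonic length with Syn on the opposite strand.

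Of 3 integrin subunit genes tested besides mys, 1 was called in sucrose and 2 in sorbose, all lower. Among all genes 14.4% were called lower in sucrose and 12.2% in sorbose, and nothing is read from a count over 3 genes. Itgbn, the second beta subunit gene, fell in both (-0.34 ± 0.11 and -0.31 ± 0.11, limma adjusted p = 0.026 and 0.0419). mew, the alpha subunit gene of a laminin receptor, fell in sorbose (-0.36 ± 0.09, limma adjusted p = 0.00913), with all 6 sorbose flies below the lowest odor fly. Of 10 genes for adhesion proteins inside the cell, 2 fell in sucrose (20%, where 14.4% of all genes were lower) and 1 in sorbose (10%, where 12.2% were lower). The kindlin gene Fit1 fell in both (-0.43 ± 0.15 and -0.52 ± 0.15, limma adjusted p = 0.0402 and 0.0178), with odor flies 1 and 6 highest at 51.1 and 48.6 RPKM. stck, which encodes the adaptor PINCH, fell in sucrose (-0.30 ± 0.06, limma adjusted p = 0.00378), and the talin gene rhea and Ilk had differences between -0.04 and 0.01. Which genes were called depended on the method. By voom on the recovered reads Itgbn was called in neither comparison and Fit1 in sorbose alone. mew in sorbose (-0.31 ± 0.10) and stck in sucrose (-0.24 ± 0.07) were still called lower. In addition if (0.46 ± 0.14) and the paxillin gene Pax (0.28 ± 0.10) were called higher in sucrose, and the focal adhesion kinase gene Fak (0.14 ± 0.05) higher in sorbose. With odor flies 1 and 6 left out, stck in sucrose was the single call among these 13 genes.

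Of 5 other receptor and proteoglycan genes, dlp rose and Sdc fell in both comparisons. Among all genes 13.1% were higher and 14.4% lower in sucrose, and 12.2% higher and 12.2% lower in sorbose. dlp encodes a glypican, and rose by 0.37 ± 0.08 in sucrose and 0.33 ± 0.08 in sorbose (limma adjusted p = 0.0041 and 0.0103). Sdc encodes syndecan, and its level was 61.3, 64.1 and 66.5 RPKM as the lowest, median and highest in sucrose flies, 63.7, 67.2 and 73.4 RPKM in sorbose flies, and 72.2, 75.6 and 80.8 RPKM in odor flies. Sdc fell by 0.25 ± 0.04 in sucrose and 0.16 ± 0.04 in sorbose (limma adjusted p = 0.000478 and 0.00766). Between the sugars none of the 38 genes was called by limma or by voom, and 4 had an unadjusted p under 0.05 (Ndg, Plod, Mmp2 and Sdc).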

How the data were processed

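Reads were aligned by the authors to dm6 (CASAVA 1.8.2, TopHat2 2.0.13, edgeR 3.18.1 per the labels) from a kit that does not mark the strand. Another passage of the methods names an older build. The deposited values are RPKM for 17559 genes, 1 column per fly. Symbols came from the Ensembl dm6 annotation (17253 IDs named, 306 not), and trol was matched by the older identifier that the study's supplement gives. Groups came from the labels.

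On the scale of log2(RPKM + 0.5), for the 11062 genes whose mean was at least 0.5 RPKM, limma 3.58.1 in R 4.3.3 was fitted to the 3 groups together with an eBayes trend and Benjamini-Hochberg adjustment over all genes in each comparison, called under 0.05. The haemocyte sum was compared by an exact permutation test with scipy 1.17.1. p-values measure the spread between single heads. The members and lists were chosen with earlier results of these data known.

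Genes named were the 10 members, if, in each comparison up to 3 called rises and 3 called falls of the wider list, called markers, and the 5 genes closest to Tig. Other called genes of that list and rhea and Ilk were named after their values were seen. Alternatives were other pseudocounts, filters, scalings, weights, a replicate block, 2 groups alone, voom on recovered reads (without trol) and leaving out flies.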

Additional observations from a re-analysis of the deposited data

Results flagged for a closer look

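Over 22 measures in 3 groups, 1 of 66 cases had a fly whose gap to the rest of its group was past Dixon's 95% limit, where chance gives about 3.3. It was Tsp in sucrose replicate 6, at 4.74 on the log2 scale, below the other 5 sucrose flies at 4.95 to 5.03.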

How the results depend on the processing

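The count of the 10 genes called in sucrose against odor was 6 and fell to 1 (Tig) without odor flies 1 and 6, a choice made after seeing the data. In sorbose against odor it was 4, and 1 with no filter, 1 with only these 2 groups in the fit and 1 without odor flies 1 and 6. Among all genes 14.7% in sucrose and 8.29% in sorbose were called without those 2 flies. The wider list had 17 calls in sucrose, against 11 with only 2 groups and 7 without odor flies 1 and 6, and 12 in sorbose, against 4 without those flies. Between the sugars it had 0, and 1 (Mmp2) with sample quality weights. Leaving out 1 fly at a time gave 4 to 8 and 1 to 6 of the 10 genes and 11 to 22 and 10 to 18 of the list, in sucrose and sorbose in that order, and 0 to 1 of the list between the sugars, where Mmp2 was called without sorbose replicate 2. The 10 genes had 1 call in sorbose without odor replicate 1, 3 or 6 or sorbose replicate 1 or 3, and 2 without sucrose replicate 1, 2, 4, 5 or 6 or sorbose replicate 4 or 5. The list had 11 calls in sucrose without odor replicate 6. For the log2 differences of the 10 genes, all 867 alternative values lay within 1 residual SD between flies of those reported. That limit is wide and takes no account of calls, so it does not show that the differences were stable. LanA in sucrose moved within it from 0.85 to 0.45 without odor flies 1 and 6 and lost its call. The other genes were judged by direction and call. Of the other genes' alternative values 777 kept direction and call, 107 were no longer called and 8 became called. The summed haemocyte markers passed the threshold in none of their alternatives. Median-of-ratios scaling and quantile normalization moved the median of all genes by less than 0.02. That median was not taken for voom on recovered reads. By voom the differences from odor were higher in all tested integrin and adhesion genes of the list except Itgbn. In sucrose that of rhea was -0.01 by limma and 0.05 by voom, and that of Ilk was -0.03 and 0.03. Depth limited none of the 10 genes, which had at least 1274 reads in each fly.

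Replicate numbers did not pair the flies. Same-numbered flies of 2 groups had an r of -0.34 to 0.44 in their deviations, over 0.1 in 7 of 18 pairs, and 3 of 18 flies were closest to their own number. With a replicate block the 10 genes had 6 calls in sucrose and 5 in sorbose (mys lower), and the list 16 and 11.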

Other observations

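The genes whose levels followed those of Tig most closely from fly to fly, with group means removed, were not genes of the basement membrane. Over the 18 flies the 5 highest Pearson r among 11061 genes were those of Dim1 (0.84, rho 0.83), Fis1 (0.84, rho 0.78), subdued (0.83, rho 0.69), MED21 (0.82, rho 0.83) and Cdk4 (0.81, rho 0.74). A search over so many genes returns high values in 18 flies, so these are descriptions. The ion channel gene subdued was at 9.32 RPKM in sucrose flies, 9.43 RPKM in sorbose flies and 6.54 RPKM in odor flies (log2 difference from odor 0.48 ± 0.10 in sucrose and 0.50 ± 0.10 in sorbose, limma adjusted p = 0.00201 and 0.00313). The cell cycle kinase gene Cdk4 was at 7.12, 7.91 and 4.59 RPKM in sucrose, sorbose and odor flies (0.56 ± 0.16 and 0.73 ± 0.16, limma adjusted p = 0.0184 and 0.0059). When odor flies 1 and 6 were left out, subdued was called in both (0.41 ± 0.10 in sucrose and 0.42 ± 0.10 in sorbose) and Cdk4 in sorbose alone (0.41 ± 0.17 in sucrose and 0.59 ± 0.17 in sorbose). Dim1, Fis1 and MED21 were called in neither comparison. Of the other 9 genes of the set, LanB1 came closest to Tig at rank 298 and mys last at rank 5084.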
